A study of Gallus gallus with 6 samples.

Results

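Genes annotated with 1 uninterrupted exon were examined in RNA-Seq of chicken neural tube cells. A gene was taken when its annotation listed a single start position, its exonic length was at least 600 bases and it did not lie on chromosome Z or W. The rule gave 570 of 17108 genes. They were read beside 13193 multi-exon genes of the same length range (600 to 9213 bases), which also leave out Z and W.

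Chicken embryos at stage HH11 were electroporated in ovo in the trunk neural tube, and the GFP-expressing cells were sorted 18 hours later. Controls received the empty vector pCIG at 2 µg/µl. The MEK1ca condition received 1 µg/µl of pCIG-MEK1ca, which carries a constitutively active form of the kinase MEK1, with 1 µg/µl of pCIG. The MEK1ca + HOXB8 condition received 1 µg/µl each of pCIG-MEK1ca and pCIG-HoxB8. The vector pCIG drives its insert and GFP from a ubiquitous promoter, so each library averages the transfected cells of several pooled embryos, whatever their cell type. MEK1 activates the kinases ERK1/2, and HOXB8 is a homeodomain transcription factor of the trunk. The study asked whether HOXB8 changes the transcriptional response to ERK overactivation. Each condition has 2 libraries, from 63637195 to 90460770 counts. The labels mark the pCIG and MEK1ca libraries as reanalysed from earlier work and the MEK1ca + HOXB8 libraries not, so that the addition of HOXB8 and the origin of the libraries cannot be told apart. In MEK1ca replicate 2, 98.8% of the members' counts from 1 to 10 were even (81 values), against 54.7% to 63.9% in the other libraries. Gene symbols are not paired with the identifiers in the sources used here. The levels of MEK1, of HOXB8 and of neural tube markers were therefore not checked, and genes are given by position on galGal4 and by their Ensembl 85 annotation.

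Most vertebrate protein-coding genes hold introns, which are spliced out of the transcript before export and translation. A minority have none, among them replication-dependent histone genes, many G protein-coupled receptors and several transcription factors of neural development. Retrotransposed copies of spliced messengers and incomplete gene models are also annotated with 1 exon. No member could be assigned to any of these kinds here.

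The members had short transcripts, and most of their lengths were multiples of 3. Their median exonic length was 1129.5 bases, against 2160 bases in the multi-exon genes, which had a median of 9 exon segments. The length was a multiple of 3 for 491 members, or 86.1%, against 41.9% of the multi-exon genes. Reading frames were not examined, so whether these models hold coding sequence alone was not tested. On numbered chromosomes, the members whose length was no multiple of 3 had a median level of 11.1 TPM in pCIG (73 genes), and those with a multiple of 3 had a median of 0.913 TPM (446 genes). TPM is a level per length and was computed from the counts and exonic lengths of all genes.

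Of the 570 members, 519 lay on numbered chromosomes, 11 on the mitochondrial chromosome and 40 on other sequences, which include unplaced scaffolds and linkage groups. Numbered chromosomes here leave out the highest-numbered one, which was counted with the other sequences. The 51 members outside the numbered chromosomes were listed at 0 in all 6 libraries. So were all 37 mitochondrial genes and all 1192 genes of other sequences in the table, which include genes that every cell uses. These zeros are therefore not read as levels. Among the 519 members on numbered chromosomes, 18 had no count in any library (3 counts over all libraries would be 0.00636 CPM, counts per 1e+06 of the total) and 501 had at least 1 count. Members made up 1.1% of the genes of chromosome 21 (3 of 262) and 6.0% of those of chromosome 9 (29 of 482), the lowest and highest shares.

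As a class, single-exon genes had lower TPM than multi-exon genes in the control neural tube. The libraries were poly-A selected, and how multiply aligned reads were handled is not given. The part of these and of the gene models in this difference was not tested. In pCIG, 68 of the 519 members were at 0 in both libraries and 183 lay above 0 and under 1 TPM, or 13.1% and 35.3%. The same classes held 3.36% and 18.5% of 12356 multi-exon genes. At the other end, 26 members (5.01%) and 1793 multi-exon genes (14.5%) reached 100 TPM. Between these, 127 members lay from 1 to 10 TPM and 115 from 10 to 100 TPM. The 7 single-exon genes from 550 to under 600 bases, just outside the rule, had a median of 15.7 TPM in pCIG over the 6 on numbered chromosomes, and the 7 from 600 to under 650 bases, just inside it, had 3.80 TPM.

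**Figure D1:**
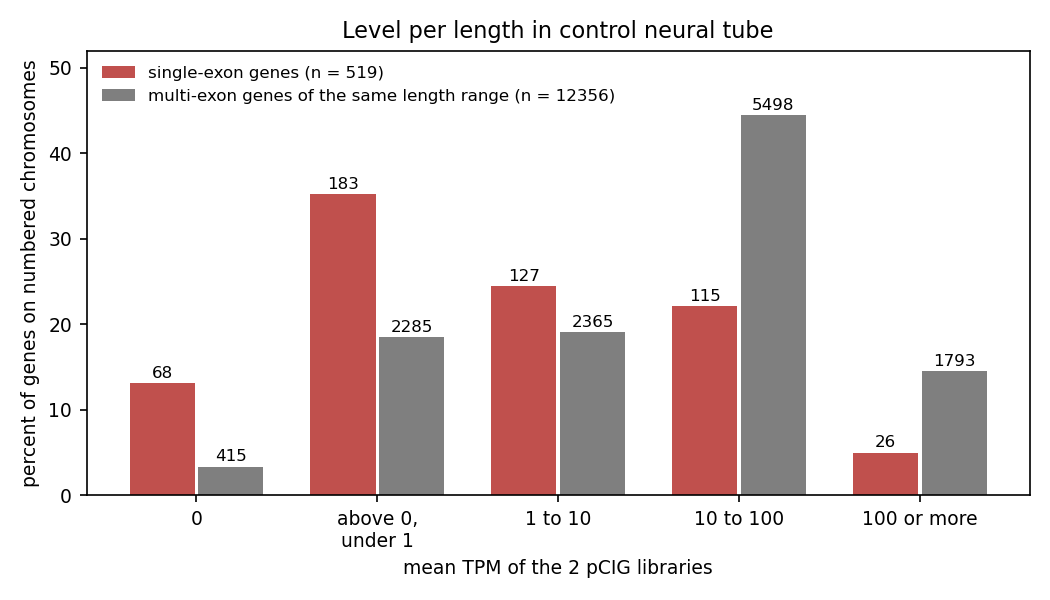
Bars give the percent of genes on numbered chromosomes (y axis, percent) in each class of mean TPM over the 2 pCIG libraries (x axis), for single-exon genes (red, n = 519) and multi-exon genes of the same length range (grey, n = 12356), with the number of genes above each bar. Single-exon genes were most often above 0 and under 1 TPM (183 genes), and multi-exon genes from 10 to 100 TPM (5498 genes).

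The medians of single-exon genes were below those of multi-exon genes in each of 3 classes of length. Members of under 1000 bases had a median of 0.842 TPM in pCIG (139 genes), and multi-exon genes of these lengths had 6.15 TPM (1571 genes). From 1000 to under 2000 bases the medians were 0.755 TPM for 308 members and 18.4 TPM for 3881 multi-exon genes. The 72 members of 2000 bases or more had a median of 13.6 TPM, beside 20.7 TPM for 6904 multi-exon genes.

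A few members carried most of the signal. The 5 most abundant held 24.9% of the members' counts over all libraries, and 21 held 50.1%, with mean levels from 100 to 539 CPM. The highest level per length was that of the gene at chr10:2014377-2015913 (plus strand, 1537 bases), at 616 and 672 TPM in pCIG, 581 and 636 TPM with MEK1ca and 849 and 758 TPM in MEK1ca + HOXB8. It overlaps another gene on the same strand, so its counts are uncertain. Next came chr2:75347266-75348000 (minus strand, 735 bases), with 571 and 634 TPM in pCIG, 458 and 587 with MEK1ca and 702 and 699 in MEK1ca + HOXB8. Both were highest in the MEK1ca + HOXB8 libraries, and their MEK1ca and pCIG values overlapped. The third, chr3:101365502-101367829 (plus strand, 2328 bases), had 366 and 395 TPM in pCIG, 327 and 329 with MEK1ca and 368 and 439 in MEK1ca + HOXB8, so that its MEK1ca libraries were the lowest.

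As a whole the members took a small and steady share of each library. They are 3.33% of the genes of the table and held 0.785% and 0.800% of the counts in pCIG, 0.797% and 0.790% with MEK1ca, and 0.810% and 0.855% in MEK1ca + HOXB8. The Wilson 95% interval of each share reached at most 0.00219 percentage points to either side and covers counting error only. Both MEK1ca + HOXB8 libraries lay above the other 4. Their mean was 0.0386 percentage points above MEK1ca and 0.0401 above pCIG (2 libraries against 2, exact two-sided permutation p = 0.333 each, the smallest this design allows). MEK1ca differed from pCIG by 0.0015 points (exact permutation p = 1). Shares of a pool do not tell fewer expressing cells from less RNA per cell, and this holds for every difference given here.

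More single-exon genes had reads when HOXB8 was added. Of 519 members, 427 and 428 had at least 1 count in the pCIG libraries, 430 and 431 with MEK1ca, and 472 and 474 in MEK1ca + HOXB8. The MEK1ca + HOXB8 libraries are the deepest, but at the depth of the smallest library the expected numbers were still 424.1 and 425.3 in pCIG, 430 and 430.1 with MEK1ca, and 467.3 and 472.3 in MEK1ca + HOXB8. Multi-exon genes moved the same way, from 11709 to 11752 of 12356 in the 4 pCIG and MEK1ca libraries to 12086 and 12098 with HOXB8. The median level of the members was 1.29 and 1.12 TPM in pCIG, 1.24 and 1.43 with MEK1ca and 1.80 and 1.87 in MEK1ca + HOXB8. In the multi-exon genes the median stayed between 17.8 and 19.8 TPM in all 6 libraries. Their lower quartile was 1.49 to 1.74 TPM in the pCIG and MEK1ca libraries, and 2.39 and 2.61 TPM in MEK1ca + HOXB8. The upper quartile of the members was 11.7 to 13.4 TPM, and 11.9 and 12.8 TPM in MEK1ca + HOXB8. The rise was thus at low levels in both kinds of gene. The part of the libraries' separate origin in this step was not tested. The calculation for the smallest depth took the counts of MEK1ca replicate 2 as listed, although nearly all of its counts from 1 to 10 were even. The effect of this on the expected numbers was not tested.

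**Figure D2:**
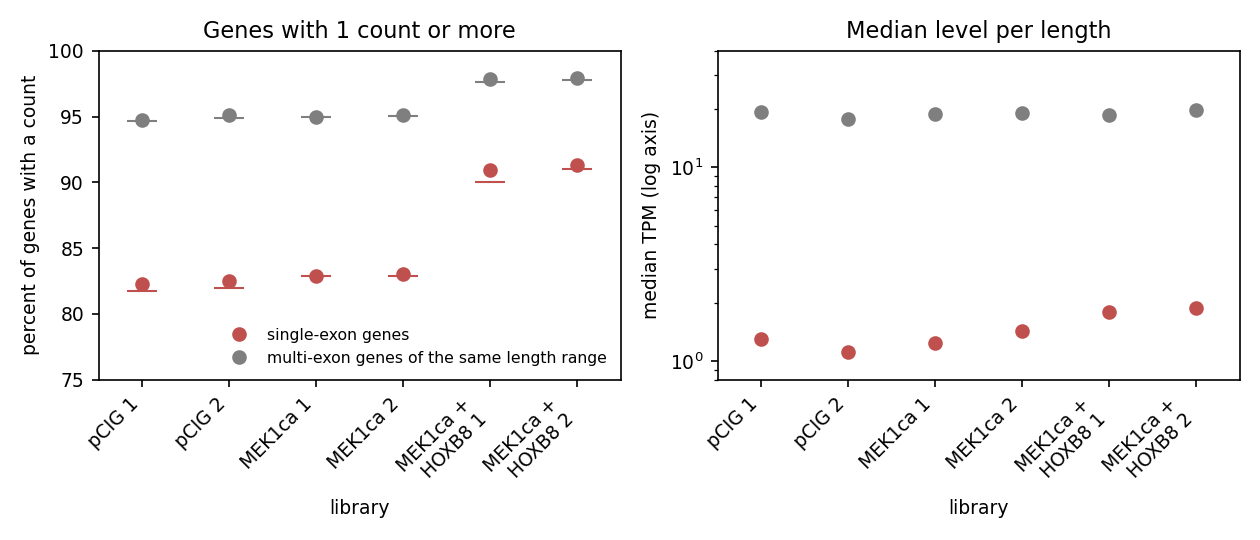
The left panel shows the percent of genes with at least 1 count (y axis, percent) in each of the 6 libraries (x axis), as counted (points) and as calculated for the depth of the smallest library (dashes), and the right panel the median level (y axis, TPM on a log axis), for single-exon genes (red) and multi-exon genes of the same length range (grey). Both MEK1ca + HOXB8 libraries stood above the other 4 for single-exon genes, with 472 and 474 genes with a count and medians of 1.80 and 1.87 TPM.

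Some members had counts only in the MEK1ca + HOXB8 libraries. This was so for 14 members (2.70% of 519), with a count in both of these libraries and 0 in the other 4, and for 95 multi-exon genes (0.769% of 12356). Only genes at 0 in both pCIG libraries could enter these counts, which were 68 members and 415 multi-exon genes. Among those, the counts were thus 14 of 68 and 95 of 415. The shares over all genes depend on how many were at 0 in pCIG, and no excess of single-exon genes is read from them. Counts in all 4 other libraries and 0 in both with HOXB8 were seen for 0 members and 1 multi-exon gene. That rule asks for counts in more libraries and for 0 in the deepest ones. It is therefore no mirror of the former, and no direction is read from the difference. Only 2 of the 14 reached 10 counts in both libraries. They are named because they are so few, after their values were seen. The gene at chr3:44838983-44839972 (minus strand, 990 bases) had 68 and 66 counts with HOXB8 and 0 in the 4 others. That is at least 35.9-fold higher than the limit of 3 counts over both MEK1ca libraries, and since the gene was chosen for these zeros no test is given. The gene at chr26:2510570-2511634 (minus strand, 1065 bases) had 10 and 13 counts and was too low to be tested.

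The comparisons between conditions used edgeR's quasi-likelihood test on all 13582 genes that passed a filter on low counts, and 406 of the 570 members passed it. Members were called at a Benjamini-Hochberg adjusted p of 0.01 or less over all tested genes, the threshold of the study. The filter keeps a gene that is high in 1 condition alone. It kept 40 members for which MEK1ca + HOXB8 was the only condition with both libraries above its minimum of 0.128 CPM. For 4 members this was MEK1ca and for 6 it was pCIG. Of the 40, 9 were called higher on addition of HOXB8. No count over the members that passed is therefore given as support for a direction.

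With MEK1ca, few genes of either kind were called. Compared with pCIG, 19 of the 406 members were called higher and 8 lower, that is 27 or 6.65%. Over all tested genes 6.16% were called, 4.26% higher and 1.9% lower, and over multi-exon genes of the same length range 6.29%. Over all levels together, the share of members called, and its split between higher and lower, were thus near the background. Of the members under 2 CPM (191 genes), 1.05% were called higher and 0% lower, against 1.96% and 0% of such multi-exon genes. From 2 to 10 CPM (86 genes) these were 10.5% and 2.33%, against 7.10% and 1.63%. From 10 to 100 CPM (108 genes) they were 5.56% and 4.63%, against 4.74% and 2.70%. At 100 CPM or more (21 genes) they were 9.52% and 4.76%, against 4.10% and 2.01%. These differences were not tested. The median log2 fold change was −0.03 over the members and −0.01 over the multi-exon genes. Where the higher group reached 5 CPM, the called members rose by a log2 fold change of 0.42 to 5.03 (13 genes) and the fallen ones changed by 0.48 to 1.37 in size (7 genes). With 1 pCIG library left out, 15 members (replicate 1) or 8 (replicate 2) were called, and 17 with MEK1ca replicate 1 left out. DESeq2 called 48.

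Among called members whose higher group reached 5 CPM, the rule used for naming, the largest rise was that of ENSGALG00000015826 (chr3:76038226-76039341, minus strand, 1116 bases, 1 exon). It had 0.260 and 0.126 CPM in pCIG, 3.16 and 9.35 CPM with MEK1ca and 0.685 and 0.498 CPM in MEK1ca + HOXB8. The MEK1ca libraries were the highest and differed 2.96-fold from each other, and no 2 conditions overlapped. Its log2 fold change in MEK1ca versus pCIG was 5.03 (SE 0.593, n = 2 against 2, edgeR adjusted p = 5.21e-04). Without pCIG replicate 2 the adjusted p was 0.0109, past the threshold. Against MEK1ca, the MEK1ca + HOXB8 libraries were lower by the largest fold among the fallen members whose higher group reached 5 CPM, with a log2 fold change of −3.50 (SE 0.522, edgeR adjusted p = 0.00123). The adjusted p of this fall was 0.0235 without MEK1ca + HOXB8 replicate 1 and 0.0256 without MEK1ca + HOXB8 replicate 2. Both comparisons share the MEK1ca libraries, here and for each gene below, so that a high value in them raises the former change and lowers the latter.

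The other members are given by position only, and they extend the naming rule to the first 5 in each direction, which was chosen after their values were seen. The gene at chr1:151896142-151897919 (plus strand, 1778 bases) was the most abundant of the risen ones. It had 24.2 and 16.5 CPM in pCIG, 323 and 320 with MEK1ca and 92.6 and 93.2 in MEK1ca + HOXB8. The 3 conditions were far apart and their replicates close. The log2 fold change was 4.0 with MEK1ca (SE 0.156, adjusted p = 5.06e-07), −1.90 on addition of HOXB8 (SE 0.142, adjusted p = 2.84e-05) and 2.11 for MEK1ca + HOXB8 versus pCIG (SE 0.145, adjusted p = 2.19e-05, edgeR throughout). These 3 calls held when any library was left out.

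Intermediate levels with HOXB8 were also measured for 2 less abundant genes. At chr15:694098-694748 (minus strand, 651 bases) the CPM were 0.805 and 0.354 in pCIG, 7.59 and 9.65 with MEK1ca and 2.56 and 3.28 in MEK1ca + HOXB8. At chr6:25774429-25775712 (plus strand, 1284 bases) they were 1.87 and 1.99, then 25.1 and 17.1, and 6.07 and 7.05. In both, every MEK1ca library was above every MEK1ca + HOXB8 library, and these above every pCIG library. The log2 fold changes were 3.92 and 3.47 with MEK1ca, and −1.67 and −1.79 on addition of HOXB8, with edgeR adjusted p from 4.55e-06 to 0.00281. The fall of the gene on chromosome 15 was no longer called without MEK1ca replicate 2 (adjusted p = 0.0154), MEK1ca + HOXB8 replicate 1 (0.0353) or MEK1ca + HOXB8 replicate 2 (0.0142).

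Other genes had levels near those of pCIG when HOXB8 was added, or stayed high. The gene at chr1:188021745-188022863 (minus strand, 1119 bases) had 6.84 and 6.96 CPM in pCIG, 36.6 and 33.5 with MEK1ca and 8.16 and 7.36 in MEK1ca + HOXB8. Its log2 fold change was 2.36 with MEK1ca and −2.28 on addition of HOXB8, and MEK1ca + HOXB8 versus pCIG gave 0.08 (SE 0.142, edgeR adjusted p = 0.695). Both MEK1ca + HOXB8 libraries were above both pCIG libraries. At chr22:2478970-2479900 (plus strand, 931 bases) the CPM were 10.1 and 12.7, 36.7 and 46.0, and 7.97 and 10.2, so that the pCIG and MEK1ca + HOXB8 values overlapped. There MEK1ca + HOXB8 versus pCIG gave −0.42 (SE 0.175, edgeR adjusted p = 0.097). In contrast, chr9:7713655-7715544 (minus strand, 1890 bases) had 3.42 and 3.15 CPM in pCIG, 15.4 and 19.6 with MEK1ca and 17.8 and 17.4 in MEK1ca + HOXB8. It rose by a log2 fold change of 2.43 with MEK1ca (SE 0.173, edgeR adjusted p = 6.88e-06). On addition of HOXB8 the log2 fold change was −0.09 (SE 0.160, edgeR adjusted p = 0.695), and MEK1ca + HOXB8 stayed above pCIG by 2.34 (adjusted p = 1.40e-05).

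A pair of members on chromosome 13 had the same length and strand, and both were called higher with MEK1ca. The pair lay under the 5 CPM of the naming rule and was picked outside it, after its values were seen. At chr13:16595217-16596110 (894 bases, minus strand) the CPM were 0.610 and 0.607 in pCIG, 4.05 and 2.65 with MEK1ca and 2.10 and 2.93 in MEK1ca + HOXB8. At chr13:16670608-16671501 (894 bases, minus strand) they were 0.857 and 0.278, 4.34 and 3.14, and 2.49 and 2.73. The edgeR adjusted p of the former was 0.010 without pCIG replicate 1 and 0.0112 without pCIG replicate 2, and that of the latter 0.0103 without MEK1ca + HOXB8 replicate 1 and 0.010 without pCIG replicate 2, each just past the threshold. Whether they are near-identical copies that share reads was not tested, and their separate values are uncertain.

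Among the members that MEK1ca lowered, ENSGALG00000008440 (chr5:23292381-23294330, plus strand, 1950 bases) changed the most. It had 5.99 and 6.88 CPM in pCIG, 2.18 and 2.73 CPM with MEK1ca and 8.39 and 9.25 CPM in MEK1ca + HOXB8. Both MEK1ca libraries were the lowest, and both MEK1ca + HOXB8 libraries were above pCIG. MEK1ca + HOXB8 versus pCIG was not called (log2 fold change 0.37, SE 0.205, edgeR adjusted p = 0.201). The log2 fold change was −1.37 with MEK1ca (SE 0.214, edgeR adjusted p = 0.00157), and this call was lost without MEK1ca replicate 1 (adjusted p = 0.0138) or without pCIG replicate 2 (0.0191). On addition of HOXB8 it was 1.74 (SE 0.215, edgeR adjusted p = 2.47e-04), and that call held without any library.

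Other members that MEK1ca lowered fell by smaller folds. At chr7:4973410-4974504 (minus strand, 1095 bases) the CPM were 110 and 107 in pCIG, 51.6 and 62.5 with MEK1ca and 45.8 and 50.1 in MEK1ca + HOXB8. The log2 fold change was −0.91 with MEK1ca (SE 0.104, edgeR adjusted p = 1.95e-04), and −1.27 for MEK1ca + HOXB8 versus pCIG (adjusted p = 2.50e-05). The gene at chr5:3505430-3506994 (plus strand, 1565 bases) had 14.6 and 16.1, 6.57 and 6.36, and 9.57 and 8.99 CPM. It stayed below pCIG with HOXB8 by a log2 fold change of −0.81 (edgeR adjusted p = 0.00388), which was not called with either pCIG library left out (0.0161 and 0.0391), nor with either MEK1ca + HOXB8 library left out (0.0190 and 0.0256). Its fall with MEK1ca of −1.23 was lost without pCIG replicate 2 (edgeR adjusted p = 0.0107).

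**Figure D3:**
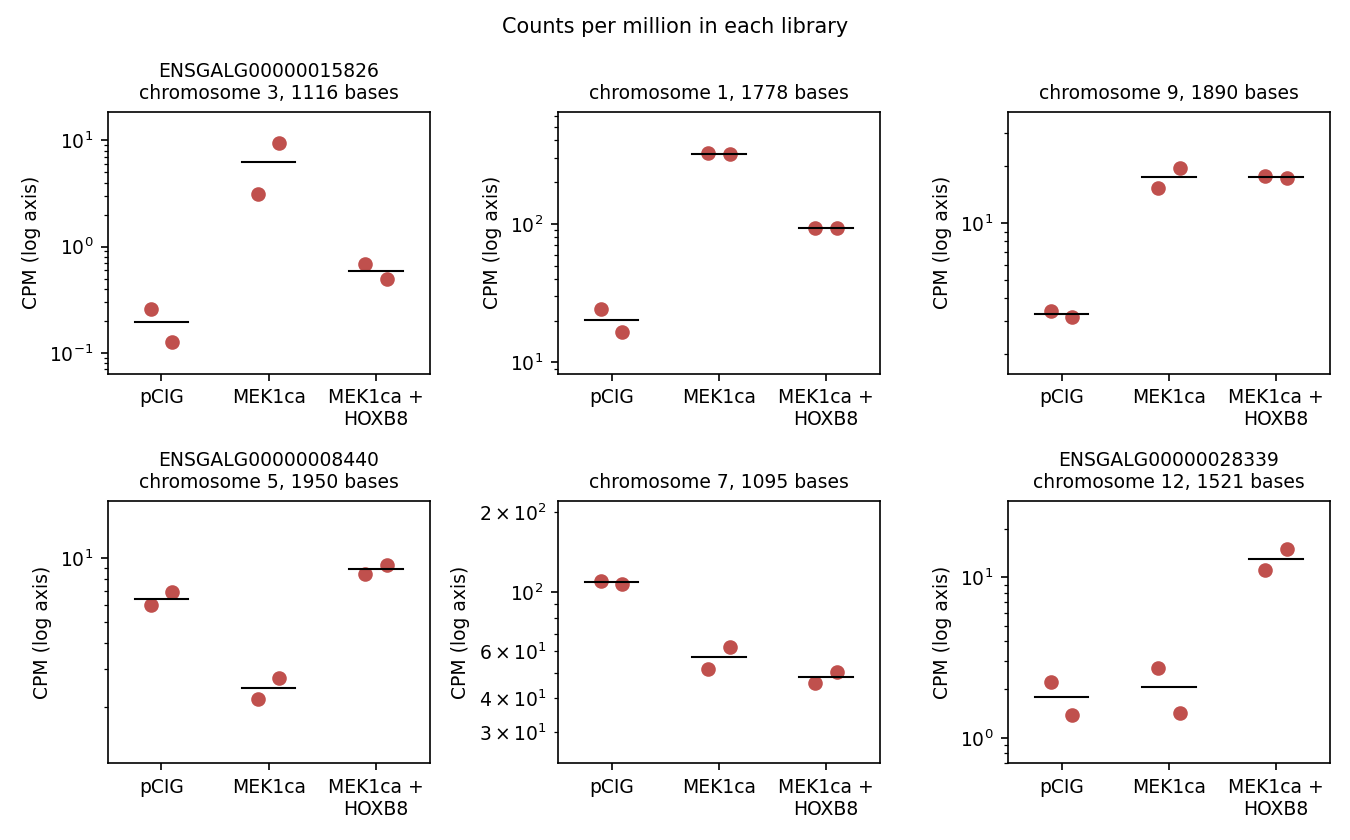
Each panel shows 1 single-exon gene, with CPM on a log axis (y) in the 2 libraries (points) and their mean (line) of pCIG, MEK1ca and MEK1ca + HOXB8 (x). The gene of 1778 bases on chromosome 1 had 323 and 320 CPM in MEK1ca against 24.2 and 16.5 in pCIG, the gene of 1890 bases on chromosome 9 stayed high with HOXB8 (17.8 and 17.4 CPM), and ENSGALG00000028339 was high only in the MEK1ca + HOXB8 libraries (11.1 and 15.0 CPM).

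Between MEK1ca + HOXB8 and MEK1ca, single-exon genes were called in both directions. The origin of the libraries also differs between these conditions and cannot be told apart from the addition of HOXB8. Of the 406 members, 41 were called higher and 23 lower than in MEK1ca, that is 64 or 15.8%. Over all tested genes 16.7% were called, 8.74% higher and 7.99% lower, and over multi-exon genes of the same length range 17.8%. The share of members was again near the background. The split between higher and lower depended on the scaling: with loess offsets, which remove a trend of fold change with mean level, 30 were higher and 27 lower. With 1 MEK1ca library left out, 36 (replicate 1) or 40 (replicate 2) were called. With 1 MEK1ca + HOXB8 library left out, 27 or 34 were called in the same order.

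Among called members whose higher group reached 5 CPM, the largest rise was that of ENSGALG00000028339 (chr12:2379402-2380922, minus strand, 1521 bases). It had 2.22 and 1.39 CPM in pCIG, 2.73 and 1.43 CPM with MEK1ca and 11.1 and 15.0 CPM in MEK1ca + HOXB8. The pCIG and MEK1ca values overlapped, and both MEK1ca + HOXB8 libraries were far above them. The log2 fold change on addition of HOXB8 was 2.55 (SE 0.341, n = 2 against 2, edgeR adjusted p = 5.82e-04), and the call held when any library was left out. The gene lies within an intron of a gene of 38 exon segments on the other strand (chr12:2342130-2383187), with 0 bases on its exons. That gene had 74.0 and 78.4 CPM in pCIG, 93.6 and 84.5 with MEK1ca and 99.4 and 105 in MEK1ca + HOXB8, and changed by a log2 fold change of 0.09 on addition of HOXB8 (edgeR adjusted p = 0.484). The strand setting of the counting is not given in the sources used here, so reads of the pair cannot be told apart by strand.

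Further rises at this level were measured in genes with flat levels between pCIG and MEK1ca. At chr1:120159804-120161450 (minus strand, 1647 bases) the CPM were 11.2 and 10.3 in pCIG, 9.82 and 11.3 with MEK1ca and 34.0 and 32.5 in MEK1ca + HOXB8. The log2 fold change on addition of HOXB8 was 1.55 (SE 0.138, edgeR adjusted p = 3.29e-05). At chr5:16355389-16356501 (plus strand, 1113 bases) they were 1.18 and 1.23, 1.27 and 0.805, and 4.65 and 5.76 CPM, with a log2 fold change of 2.22 (SE 0.309, edgeR adjusted p = 4.78e-04). At chr5:26725432-26727609 (plus strand, 2178 bases) they were 2.71 and 2.30, 2.59 and 2.47, and 7.54 and 7.55 CPM. In all 3 genes the MEK1ca and pCIG values overlapped, and no MEK1ca + HOXB8 value came near them. These 3 calls held when any library was left out.

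Called members also included 3 whose MEK1ca libraries were both at 0. All 3 passed the filter only through MEK1ca + HOXB8 and were chosen here for their zeros, so their adjusted p are a description and no further support. One is the gene on chromosome 3 described above, whose call was lost without either MEK1ca + HOXB8 replicate (edgeR adjusted p = 0.0134 and 0.0108). At chr2:110920976-110922025 (minus strand, 1050 bases) the counts were 8 and 0 in pCIG and 86 and 68 in MEK1ca + HOXB8, at least 41.3-fold higher than the limit of 3 counts over both MEK1ca libraries (edgeR adjusted p = 0.00312). At chr27:1308167-1309411 (plus strand, 1245 bases) they were 1 and 4, and 41 and 74, at least 30.8-fold higher (edgeR adjusted p = 0.00179). The former call was lost without either MEK1ca replicate (adjusted p = 0.0104 and 0.0109) or either MEK1ca + HOXB8 replicate (0.0263 and 0.0176), and the latter without MEK1ca + HOXB8 replicate 2 (0.0169).

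Among the falls of members whose higher group reached 5 CPM, the largest after ENSGALG00000015826 was at chr12:4370554-4371978 (plus strand, 1425 bases). Its CPM were 1.49 and 1.78 in pCIG, 2.45 and 8.60 with MEK1ca and 1.12 and 0.865 in MEK1ca + HOXB8. The MEK1ca replicates differed 3.51-fold. The log2 fold change of −2.58 (edgeR adjusted p = 0.00619) was not called without MEK1ca replicate 2 (adjusted p = 0.0206), without either MEK1ca + HOXB8 replicate (0.0622 and 0.0757) or without either pCIG replicate (0.0154 and 0.0114). The falls of chr22:2478970-2479900 (−2.29, adjusted p = 1.63e-05), chr1:188021745-188022863 (−2.28, adjusted p = 5.58e-06) and chr1:151896142-151897919 (−1.90) came next, and these calls of the same edgeR test held when any library was left out.

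The median change on addition of HOXB8 is described by class of mean level. For members under 2 CPM the median log2 fold change was 0.56 (191 genes), from 2 to 10 CPM it was 0.16 (86 genes), from 10 to 100 CPM −0.01 (108 genes) and at 100 CPM or more −0.17 (21 genes). The multi-exon genes of the same length range had medians of 0.84, 0.32, −0.04 and −0.14 in these classes. All 40 members that passed the filter only through MEK1ca + HOXB8 lay under 2 CPM, as did all 463 such multi-exon genes. The medians of this class thus include genes kept for being high there, and no direction is read from them. The effect of the filter on these medians was not tested. Without a filter the members' median over all classes was 0.27, and that of the multi-exon genes 0.02. Within each class up to 10 CPM the median of the members was below that of the multi-exon genes. The members' median over all classes was 0.21, against 0.01 for the multi-exon genes. Of the tested members 47.0% lay under 2 CPM, and of the tested multi-exon genes 19.4%. With loess offsets the members' median was −0.11 and that of the multi-exon genes 0.00.

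**Figure D4:**
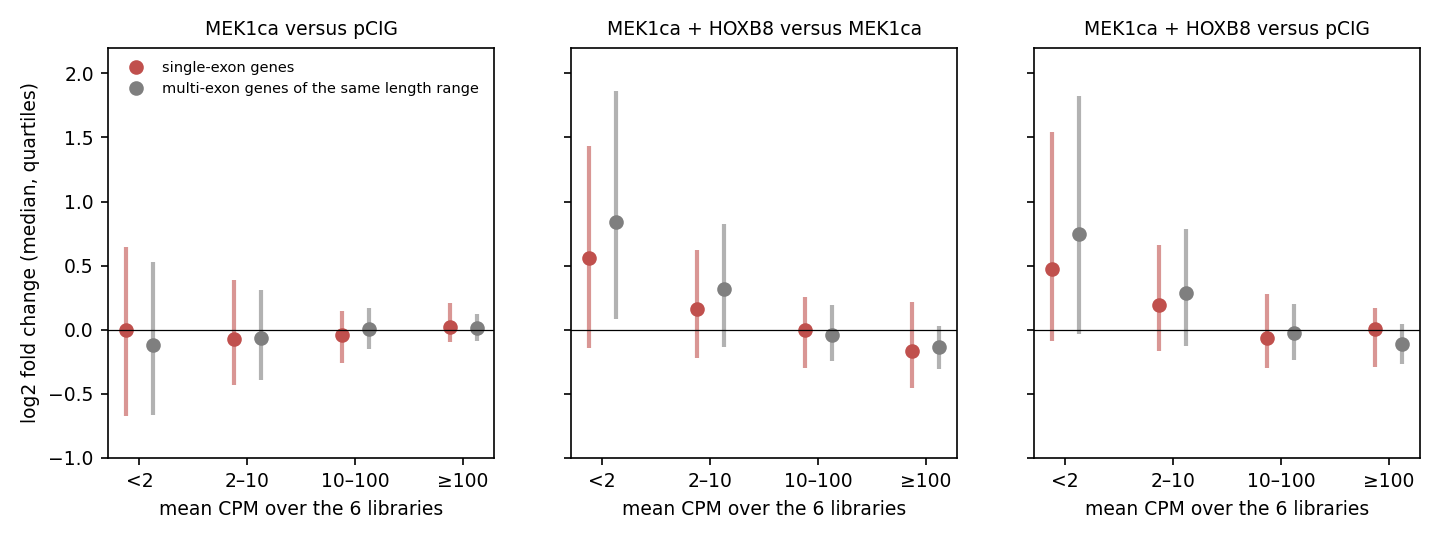
Median log2 fold change (y axis, points, with lines from the lower to the upper quartile over genes) in 4 classes of mean CPM over the 6 libraries (x axis), for single-exon genes (red) and multi-exon genes of the same length range (grey), in the 3 comparisons. On addition of HOXB8 the medians of both kinds of gene were 0.56 and 0.84 under 2 CPM, and −0.17 and −0.14 at 100 CPM or more. The class under 2 CPM includes genes that passed the filter on low counts only through MEK1ca + HOXB8. In MEK1ca versus pCIG all medians lay between −0.12 and 0.02.

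In the highest class, 0 of 21 members were called higher by edgeR with HOXB8 and 6 lower, or 28.6%, and of the multi-exon genes of that class 2.85% were called higher and 18.5% lower. At an unadjusted p under 0.05 edgeR found 5 of the 21 higher, and DESeq2 called 2 higher. In MEK1ca versus pCIG the medians were 0.00, −0.07, −0.04 and 0.02 for the members from the lowest to the highest class.

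MEK1ca + HOXB8 versus pCIG gave 49 called members, 34 higher and 15 lower, or 12.1%. Over all tested genes 14.8% were called, 8.91% higher and 5.9% lower, and over multi-exon genes 15.8%. With loess offsets 22 members were higher and 19 lower. Leaving out pCIG replicate 1 or 2 gave 25 and 21 calls, and leaving out either MEK1ca + HOXB8 replicate gave 26. The median log2 fold change was 0.18 over the members and 0.02 over the multi-exon genes. This comparison shares its libraries with the others. Among its called members whose higher group reached 5 CPM, the largest fall after that of chr7:4973410-4974504 was at chr10:13454717-13456486 (plus strand, 1770 bases). There the CPM went from 94.3 and 101 in pCIG to 51.6 and 68.6 with MEK1ca and 42.6 and 46.1 in MEK1ca + HOXB8, with a log2 fold change versus pCIG of −1.23 (SE 0.127, edgeR adjusted p = 1.03e-04). At chr15:3411518-3413275 (minus strand, 1758 bases), which is among the 10 members with the highest TPM in pCIG, it went from 180 and 202 to 102 and 136, and 89.1 and 89.8 CPM, a log2 fold change of −1.18 (SE 0.123, edgeR adjusted p = 1.35e-04). In both genes every MEK1ca library lay between the pCIG and the MEK1ca + HOXB8 libraries. For these genes the log2 fold change was −0.68 and −0.66 with MEK1ca, and −0.54 and −0.52 on addition of HOXB8 (edgeR adjusted p 0.0046 to 0.0098). None of the calls with MEK1ca or on addition of HOXB8 held in every fit with 1 library left out. In these fits the log2 fold change of MEK1ca + HOXB8 versus pCIG was −1.29 to −1.17 for the former gene and −1.27 to −1.08 for the latter. Without MEK1ca replicate 1 the changes with MEK1ca were −0.50 and −0.48. Without MEK1ca replicate 2 those on addition of HOXB8 were −0.35 and −0.32.

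Single-exon genes lay inside other genes more often than multi-exon genes did. Of the 570 members, 62 (10.9%) lay within the span of another gene, all on its opposite strand, and 25 of these had bases on that gene's exons. Among multi-exon genes 2.29% were nested. The classes share a range of exonic length, not of genomic span, so these shares are not matched for span. Any overlap with another gene was found for 18.2% of the members and 13.7% of the multi-exon genes. On numbered chromosomes the nested members had a median of 0.308 TPM in pCIG (60 genes), and the others 1.71 TPM (459 genes). Of the 39 nested members tested, 0 were called by edgeR with MEK1ca (2 at an unadjusted p under 0.05, and 1 called by DESeq2), where 6.16% of all tested genes were called. On addition of HOXB8, 2 were called higher and 1 lower, where 16.7% of all tested genes were called. Besides ENSGALG00000028339, these were chr2:68593992-68596135 and chr9:15777289-15778413. The former (plus strand) had 1.65 and 2.02 CPM in pCIG, 1.16 and 0.935 with MEK1ca and 3.84 and 3.48 in MEK1ca + HOXB8, a log2 fold change of 1.70 on addition of HOXB8 (edgeR adjusted p = 0.00162), and its host of 14 segments changed by 0.55 (adjusted p = 0.0836). The call of this member was lost without MEK1ca replicate 2 (0.0123) or MEK1ca + HOXB8 replicate 1 (0.0171). The latter (minus strand) had 70.8 and 70.1, 52.6 and 55.5, and 35.3 and 36.1 CPM, a log2 fold change of −0.70 (edgeR adjusted p = 3.59e-04), while its host of 36 segments lay at 1.59 to 2.91 CPM in the 6 libraries and changed by −0.37 (adjusted p = 0.330).

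Members that neighbour each other mostly had very few counts. An array was taken as 3 or more consecutive genes that are all members, with gaps of at most 50 kb, and there were 5, with 18 members. Only 7 of the 18 passed the filter. The array of 5 genes at chr5:220218-244206 held 1 gene with a steady level, at 1.47 to 2.50 CPM in the 6 libraries, and 4 with at most 24 counts in any library. The arrays at chr2:43274889-43322692 (3 genes) and chr10:276437-328290 (4 genes) had at most 6 and 31 counts in a gene. The array of 3 at chr3:56106328-56138753 had at most 36 counts. At chr3:3258573-3271808 all 3 genes passed, and 1 of them, chr3:3270618-3271808 (minus strand, 1191 bases), was called. It had 2.45 and 2.09 CPM in pCIG, 1.10 and 1.19 with MEK1ca and 3.38 and 3.49 in MEK1ca + HOXB8, with a log2 fold change of 1.48 on addition of HOXB8 (edgeR adjusted p = 0.00241). This call was lost without MEK1ca replicate 1 (0.0165), MEK1ca replicate 2 (0.0112), MEK1ca + HOXB8 replicate 1 (0.0174) or MEK1ca + HOXB8 replicate 2 (0.0154). Its 2 neighbours at 1.30 to 4.86 CPM were not called in any comparison by edgeR or DESeq2. Over the comparisons, 3 of their edgeR tests had an unadjusted p under 0.05.

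Replicates of most expressed members lay close together. Among members with at least 5 CPM in 1 replicate, the higher replicate was a median of 1.10 times the lower one in pCIG and MEK1ca and 1.09 times in MEK1ca + HOXB8. The replicates differed at least 2-fold for 1 of 157 members in pCIG, 5 of 160 with MEK1ca and 0 of 166 in MEK1ca + HOXB8, against 0.226%, 0.665% and 0.0688% of multi-exon genes. The widest spread was at chr5:52784177-52786081, with 244 and 71.5 CPM in pCIG, 217 and 37.3 with MEK1ca and 137 and 200 in MEK1ca + HOXB8. In both pCIG and MEK1ca replicate 1 was the higher, and no comparison called this gene.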

How the data were processed

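The deposited gene table holds raw counts of 6 libraries of GFP-sorted neural tube cells (3 conditions, 2 libraries each), with exon positions and exonic length per gene. RNA was poly-A selected after linear amplification of cDNA and read as paired ends of 50 bases. Per the labels, the authors used Subread on the galGal4 genome for alignment and featureCounts with the Ensembl 85 annotation for the counts. Program versions, whether strand was used and how multiply aligned reads were handled are not given in the sources used here. The authors' deposited tables of 2 comparisons, which hold log2 fold changes, p-values and scores, were not used.

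Counts were fitted in R 4.3.3 with edgeR 4.0.16 (filterByExpr, TMM factors 0.964 to 1.05, robust quasi-likelihood fit of all 6 libraries, biological coefficient of variation 0.126), with Benjamini-Hochberg adjustment over 13582 genes and a threshold of 0.01. Standard errors were taken as the size of the log2 fold change divided by the root of F. CPM are counts per 1e+06 of the library's total. DESeq2 1.42.0 was an alternative. Python 3.11.15 with pandas 2.3.3 and scipy 1.17.1 made the rest. The fit was tested on simulated data. Per the study's methods, replicates are independent RNA samples from pooled embryos. Where a library was left out, the lone library was assumed to vary like the others.

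Members and lists were chosen with earlier results of these data known. The rule for naming took, in MEK1ca versus pCIG and in MEK1ca + HOXB8 versus MEK1ca, the called member with the largest rise and the one with the largest fall, among those whose groups do not overlap and whose higher mean reaches 5 CPM. Planned gene lists and markers by symbol could not be used, because the identifiers are not paired with symbols here.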

Additional observations from a re-analysis of the deposited data

How the results depend on the processing

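Under the alternatives that kept all libraries, the number of single-exon genes called kept within 1.5 times of the reported one, with these exceptions. In MEK1ca versus pCIG DESeq2 called 48 in place of 27. At a threshold of 0.05 the numbers were 55, 111 and 100 for MEK1ca versus pCIG, MEK1ca + HOXB8 versus MEK1ca and MEK1ca + HOXB8 versus pCIG, in place of 27, 64 and 49. Leaving out 1 library gave 8 to 28, 27 to 58 and 21 to 53 calls.

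The median log2 fold change of the members moved by more than the spread of the libraries with library size alone (−0.056, 0.32 and 0.26 in the 3 comparisons, where the median of all genes was −0.03, 0.12 and 0.10) and with loess offsets, chosen after seeing the data (−0.013, −0.11 and −0.079). Without a filter on low counts it was 0.00 in MEK1ca versus pCIG and 0.30 in MEK1ca + HOXB8 versus pCIG, and with members of at least 1000 bases −0.0089 in MEK1ca versus pCIG. Leaving out 1 library gave −0.056 to 0.025, 0.090 to 0.23 and 0.10 to 0.21, and the lowest value in both comparisons with HOXB8 came without MEK1ca + HOXB8 replicate 2. Halving all counts of MEK1ca replicate 2, rounded down, gave 27, 64 and 52 calls.

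The difference in the members' share of counts between MEK1ca and pCIG, 0.0015 percentage points, changed sign with a denominator of genes of at least 600 bases outside Z, W and the mitochondrial chromosome (−0.00165) and with members of at least 1000 bases (−0.00194), and was −0.00633 to 0.00934 when 1 library was left out. It is smaller than the spread between replicates. The differences with HOXB8 were 0.0161 to 0.0612 points against MEK1ca and 0.0176 to 0.0627 against pCIG without 1 library, and stayed above 0 in all alternatives run.

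Alternatives were also run for 30 log2 fold changes, the largest per comparison and direction among called members that met the naming rule's level. Of the 450 values under alternatives, 420 kept direction and call, and 0 changed direction. The other 30 kept direction and lost the call (27 of these on leaving out a library). The fold changes were chosen as the largest, so these counts do not describe the called members in general. The cause of the lost calls was not tested.

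With the replicate number as a replicate block, 28, 61 and 50 members were called. Deviations of same-numbered replicates had correlations across all genes of 0.128, −0.113 and −0.027, so the numbers are not taken to pair the libraries.

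Precision is limited by 2 libraries per condition. At the smallest library, 3 counts are 0.0471 CPM, and differences among members near that level were not detectable.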
